A study of Mus musculus with 50 samples.

Results

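The 35 genes described here are a list of markers of enteric neurons and enteric glia, the nerve cells of the gut wall and their supporting cells. They were taken by gene symbol from the array's probe annotation, and all 35 were present with 1 probe set each, out of 19494 genes tested. They comprise 5 transcription factors and trophic factor receptors (Phox2a, Hand2, Ret, Gfra1, Gfra2), 10 neuronal RNA-binding, cytoskeletal and axonal genes (Elavl3, Elavl4, Uchl1, Prph, Tubb3, Stmn2, Stmn3, Nefl, Nefm, Gap43) and 5 genes of synaptic vesicles and secretory granules (Syt1, Syp, Syn1, Snap25, Scg2). The rest are 9 genes of transmitters, peptides, calcium binding and the acetylcholine receptor (Chat, Nos1, Vip, Tac1, Gal, Cartpt, Calb1, Calb2, Chrna3) and 6 genes of enteric glia and the neural crest (S100b, Sox10, Gfap, Ednrb, Erbb3, Foxd3).

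Total RNA from whole colon of mice was hybridised to 50 Affymetrix arrays, 5 in each of 10 groups. The sample descriptions give an age of 11 weeks and the series' design text 10 to 12 weeks, while the source names carry differing ranges that were not used here. Array titles fall into a low number series, from 1 to 30, and a high one, from 86 to 124. The low series held FADD IEC-KO colons that were also Zbp1 -/- or Mlkl -/-, CASP8 IEC-KO Mlkl -/-, CASP8 IEC-KO, FADD IEC-KO and Fadd fl/fl colons, and the high series held FADD IEC-KO RIPK3 IEC-KO, CASP8 IEC-KO, FADD IEC-KO and Casp8 fl/fl colons. IEC-KO stands for deletion in intestinal epithelial cells, so by their name the single knockouts lost the gene in the epithelium and not in nerve cells. Whether nerve cells kept the gene was not measured here. Zbp1 -/- and Mlkl -/- are written as alleles lost in every cell. The sources used here name no Cre driver, no strain background and no sex, and they do not say that the 5 arrays of a group came from separate mice. The p-values therefore measure the spread between these samples, which may be technical. Each series held 1 kind of floxed control, so FADD IEC-KO colons of the high series were set against Casp8 fl/fl colons, and CASP8 IEC-KO colons of the low series against Fadd fl/fl colons. Among the controls, floxed line and title-number series cannot be told apart.

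The enteric nervous system lies as ganglia between the layers of smooth muscle and under the mucosa, and its neurons and glia drive and tune motility, secretion and blood flow. Its precursors migrate from the neural crest and depend on GDNF family ligands, which act through the receptor Ret with the co-receptors Gfra1 and Gfra2, and on endothelin acting through Ednrb. FADD and caspase-8 are adaptor and protease of the death receptor pathway and hold back necroptosis, a lytic cell death carried out by RIPK3 and MLKL that ZBP1 can start. The comparisons ask how markers of nerve cells in the gut wall stood when the epithelium lost FADD or caspase-8, and again when a gene of the necroptosis pathway was lost as well.

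The targeted epithelial genes read low where the labels say they were deleted. On the log2 scale Fadd was 0.99 and 1.16 lower in FADD IEC-KO than in floxed colons of the low and high series, and Casp8 was 1.18 and 1.52 lower in CASP8 IEC-KO colons. Mlkl fell by 1.95 in FADD IEC-KO Mlkl -/- against FADD IEC-KO colons and by 1.28 in CASP8 IEC-KO Mlkl -/- against CASP8 IEC-KO colons, and it also lay below Fadd fl/fl colons in both, with differences of −1.07 and −0.93. Zbp1 and Ripk3 are a weaker check, since both rose in FADD IEC-KO colons against floxed colons, by 1.61 and 1.55 in the low series. Zbp1 fell by 1.80 in FADD IEC-KO Zbp1 -/- against FADD IEC-KO colons, and against Fadd fl/fl colons it differed by −0.19 (adjusted p = 0.852). Ripk3 fell by 1.41 in FADD IEC-KO RIPK3 IEC-KO against FADD IEC-KO colons, with a difference of 0.09 from Casp8 fl/fl colons, and it also fell with Mlkl loss (by 1.16) and with Zbp1 loss (by 0.92), where it was not targeted. The arrays had medians of 6.41 to 6.47 and correlated with each other at 0.953 to 0.994. Inflammation genes varied between arrays of one group. The mean log2 signal of 7 neutrophil and acute inflammation genes ran between 5.23 and 10.3 in FADD IEC-KO colons and between 4.65 and 4.73 in Fadd fl/fl colons of the low series, with replicates 22 and 23 the highest. In FADD IEC-KO colons of the high series it was 9.44 and 7.60 in replicates 117 and 124 and between 4.77 and 4.94 in the other 3, and the muscle mean was 8.08 and 8.96 in those replicates and between 9.55 and 9.90 in the other 3. No detection calls were used, so no gene was called absent. By mean signal over all arrays, 11 of the 35 genes lay among the dimmest 40% of genes on the array and 24 above them. The 11 were Elavl3, Elavl4, Chat, Calb1, Gal, Syn1, Nefl, Nefm, S100b, Sox10 and Gap43.

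In FADD IEC-KO colons of the low series, 12 of the 35 enteric neuron and glia genes fell and 1, Tac1, rose against Fadd fl/fl colons. Over all 19494 genes, 10.1% fell and 8.59% rose in that comparison (limma, Benjamini-Hochberg adjusted p under 0.05). The 12 included the neurturin co-receptor Gfra2, the axonal genes Stmn2 and Gap43, the vesicle gene Syt1 and the calcium-binding protein gene Calb2. In all, 28 of the 35 were lower, and the median log2 difference was −0.22, against −0.02 for all genes. The mean log2 signal of the 35 genes was 6.29 ± 0.14 in FADD IEC-KO colons and 6.52 ± 0.11 in Fadd fl/fl colons (SD, n = 5 each). In bulk tissue, fewer cells of a type and less RNA per cell cannot be told apart.

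**Figure D1:**
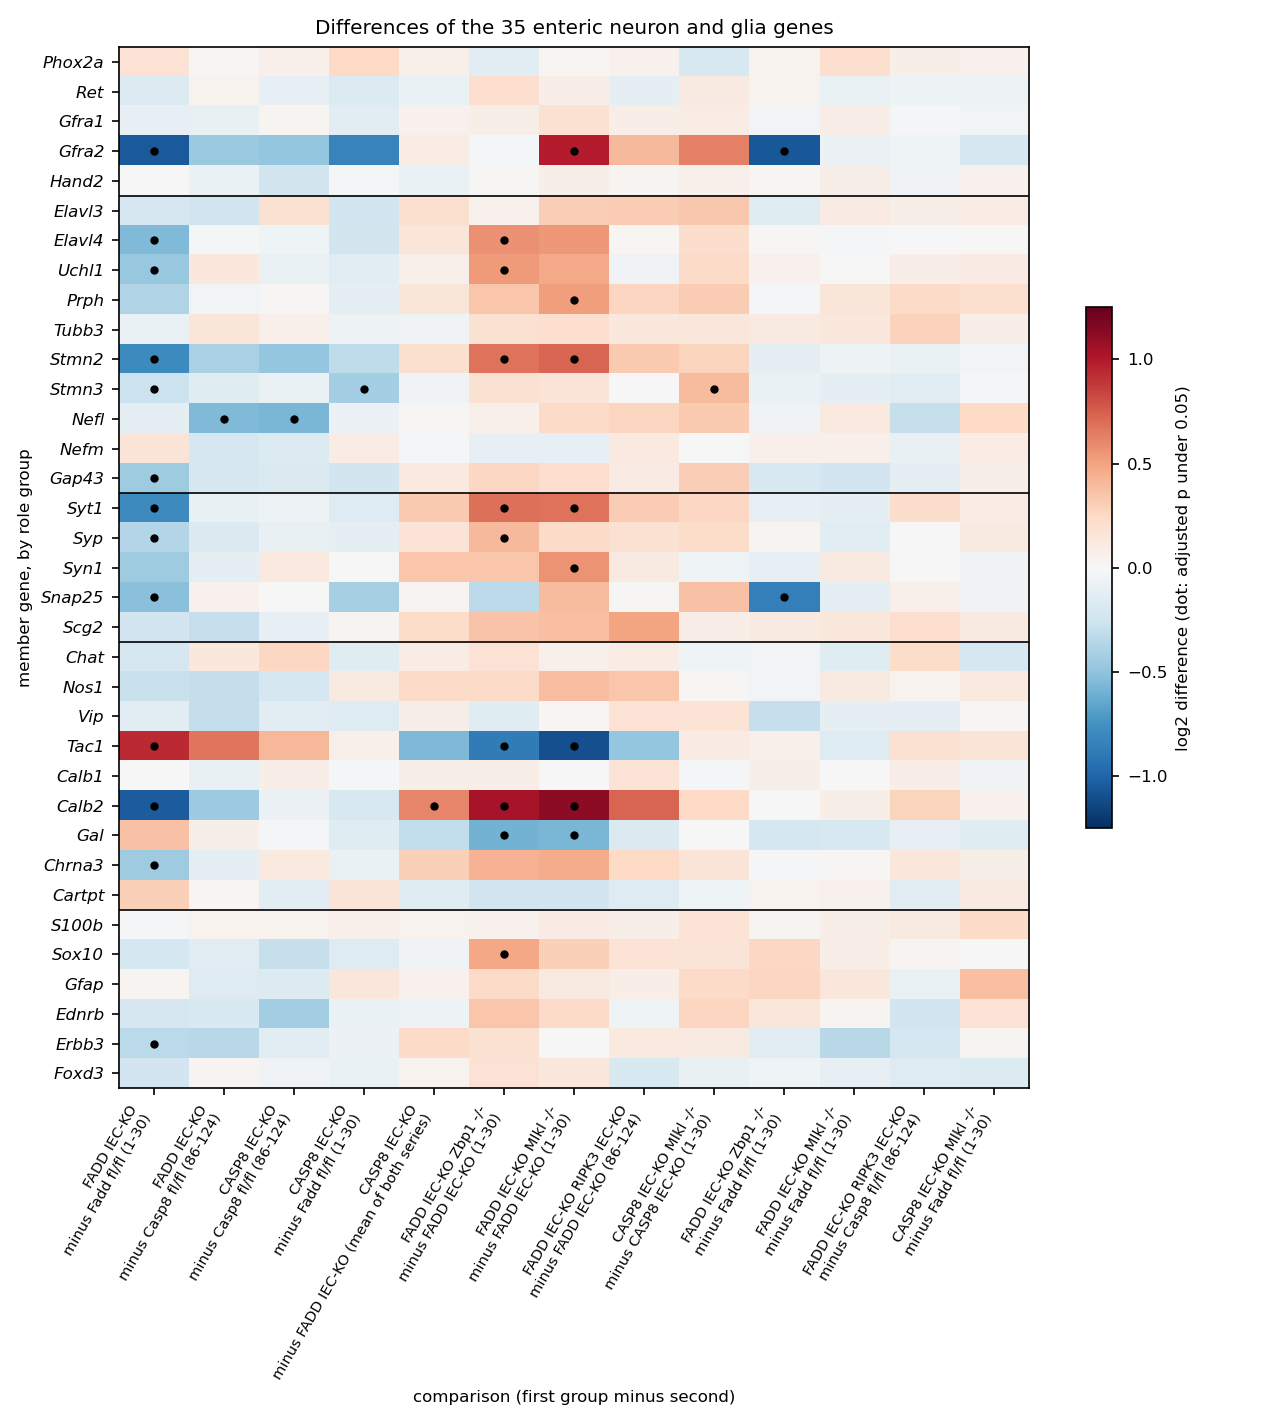
Log2 differences (first group minus second) of the 35 genes, in rows by role, in 13 comparisons, in columns. Blue is lower and red is higher in the first group, and a black dot marks an adjusted p under 0.05 over all 19494 genes. The first column, FADD IEC-KO minus Fadd fl/fl colons of the low series, has 13 dots, and most other columns have 2 or fewer.

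Among transcription factors and trophic factor receptors, 1 of 5 fell. Gfra2 encodes the co-receptor that binds neurturin and presents it to Ret. Its log2 signal was 7.68, 6.71, 6.77, 7.08 and 7.37 in the 5 FADD IEC-KO colons, against 7.96, 8.42, 8.05, 7.85 and 8.60 in the 5 Fadd fl/fl colons. Every FADD IEC-KO array lay below every Fadd fl/fl array, and the log2 difference was −1.05 ± 0.25 (SE, adjusted p = 0.00233), or 0.482 of the control signal. The other GDNF family receptors moved less. Ret, the signalling receptor, differed by −0.17 ± 0.12 (adjusted p = 0.334), and Gfra1, the co-receptor for GDNF, by −0.10 ± 0.09 (adjusted p = 0.448). Phox2a, a transcription factor of autonomic neurons, read 6.19, 6.38, 6.58, 6.07 and 6.21 in FADD IEC-KO colons and 5.92, 6.26, 6.23, 6.21 and 5.90 in Fadd fl/fl colons. The groups overlapped and Phox2a did not pass (0.18 ± 0.11, adjusted p = 0.293), and neither did Hand2, another transcription factor of these neurons, at a difference of 0.00 ± 0.08.

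Of the 10 RNA-binding, cytoskeletal and axonal genes, 5 fell, and 9 were lower. Stmn2 encodes a microtubule-destabilising protein of growing axons. It read 7.80, 7.26, 7.12, 7.24 and 6.73 in FADD IEC-KO colons and 8.04, 8.05, 7.94, 7.87 and 8.25 in Fadd fl/fl colons, with no overlap (−0.79 ± 0.18, adjusted p = 0.00138). Gap43, which encodes a growth cone protein, read 5.75, 5.42, 5.55, 5.63 and 5.66 in FADD IEC-KO colons and 6.06, 6.10, 5.80, 5.86 and 6.40 in Fadd fl/fl colons. All 5 FADD IEC-KO arrays lay below the lowest Fadd fl/fl array for Gap43 as well, with a difference of −0.44 ± 0.10 (adjusted p = 0.00206). Elavl4, the neuronal RNA-binding protein HuD, read 4.58, 4.53, 4.80, 4.66 and 4.44 in FADD IEC-KO colons and 5.07, 5.27, 4.64, 5.38 and 5.44 in Fadd fl/fl colons. The lowest Fadd fl/fl array lay within the FADD IEC-KO range, and the difference was −0.55 ± 0.18 (adjusted p = 0.0243). Uchl1, a ubiquitin hydrolase used as a general marker of neurons, fell by 0.48 on the log2 scale (adjusted p = 0.0385), and the stathmin gene Stmn3 fell by 0.27 (adjusted p = 0.0267). The 5 that did not pass were Elavl3, the intermediate filament genes Prph, Nefl and Nefm, and the tubulin gene Tubb3, with differences between −0.37 for Prph and 0.17 for Nefm.

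Of the 5 genes of synaptic vesicles and secretory granules, 3 fell and all 5 were lower. Syt1, the calcium sensor of vesicle release, read 7.45, 6.28, 7.04, 7.14 and 6.59 in FADD IEC-KO colons and 7.79, 7.78, 7.45, 7.48 and 7.98 in Fadd fl/fl colons. A single FADD IEC-KO array, at 7.45, reached the lowest Fadd fl/fl array, and the difference was −0.79 ± 0.18 (adjusted p = 0.00143). Snap25, a SNARE protein gene of vesicle fusion, read 7.14, 7.11, 7.56, 7.53 and 7.12 in FADD IEC-KO colons and 7.80, 7.68, 7.57, 7.71 and 8.33 in Fadd fl/fl colons. The groups did not overlap, although the closest arrays were 7.56 and 7.57, and the difference was −0.52 ± 0.18 (adjusted p = 0.0305). Syp, the vesicle membrane protein synaptophysin, fell by 0.36 (adjusted p = 0.0133). Syn1, which tethers vesicles to the cytoskeleton, differed by −0.45 ± 0.18 (adjusted p = 0.0677), and the granule protein gene Scg2 by −0.24 ± 0.16 (adjusted p = 0.301).

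The promoter windows of Syp and Syn1 are shown because these vesicle genes moved side by side, 1 past the threshold and 1 short of it. The sequences are from RefSeq, each the 250 bases before the gene's start in GRCm38.p6, 5′ to 3′ on the gene's strand, in lower case with a searched motif in capitals. Syp lies at chrX:7638330-7638579 on the plus strand and Syn1 at chrX:20920919-20921168 on the minus strand.
Syp: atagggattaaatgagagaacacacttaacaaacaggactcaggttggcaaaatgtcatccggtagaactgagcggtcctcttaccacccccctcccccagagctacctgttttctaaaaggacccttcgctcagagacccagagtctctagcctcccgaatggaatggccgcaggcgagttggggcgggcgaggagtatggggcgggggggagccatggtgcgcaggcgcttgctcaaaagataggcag
Syn1: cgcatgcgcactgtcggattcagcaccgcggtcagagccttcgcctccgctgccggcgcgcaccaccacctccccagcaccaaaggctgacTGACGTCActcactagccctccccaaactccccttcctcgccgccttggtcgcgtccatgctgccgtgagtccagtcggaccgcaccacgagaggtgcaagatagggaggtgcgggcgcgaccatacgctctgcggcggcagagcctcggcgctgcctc
The capitals in Syn1 mark the cAMP response element TGACGTCA, which starts 159 bases before the gene's start. Of the 35 members, 24 have at least 1 window in the RefSeq table, which holds 32851 windows of 300 bases, from 250 before to 50 after the start. In these windows 5 motifs were searched on both strands. The 24 members have 28 windows between them. Below, members are counted as genes while the percentages are of windows, so the measures differ. TGACGTCA was found for 4 of the 24 members (Cartpt, Foxd3, Scg2, Syn1) and in 1.79% of all windows. Its first 6 letters, TGACGT, which every TGACGTCA contains, were found for 8 members and in 7.51% of all windows. The E-box CACGTG was found for 3 members (Chat, Foxd3, Tac1) and in 7.15%, the E-box CAGCTG for 5 members and in 16.3%, and the TATA box TATAAA for 3 members and in 13.6%. The printed window of Syp holds none of them. These matches describe letters only.

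Among the 9 genes of transmitters, peptides, calcium binding and the acetylcholine receptor, 2 fell and 1 rose. Calb2 encodes calretinin, a calcium-binding protein of excitatory and sensory enteric neurons. It read 6.80, 5.04, 5.50, 6.40 and 5.77 in FADD IEC-KO colons and 6.88, 7.33, 6.71, 6.72 and 7.05 in Fadd fl/fl colons. One FADD IEC-KO array, replicate 21 at 6.80, lay among the controls and the other 4 below them, and the difference was −1.04 ± 0.24 (adjusted p = 0.00194), or 0.487 of the control signal. Chrna3, a subunit of the ganglionic nicotinic acetylcholine receptor, fell by 0.44 (adjusted p = 0.0432). Tac1, the precursor of the excitatory peptides substance P and neurokinin A, went the other way. It read 8.01, 9.77, 9.37, 8.37 and 8.11 in FADD IEC-KO colons and 8.01, 7.92, 7.56, 7.24 and 8.25 in Fadd fl/fl colons. The highest values, 9.77 and 9.37, were those of replicates 22 and 23, the other 3 FADD IEC-KO arrays overlapped with the controls or lay just above them, and the difference was 0.93 ± 0.28 (adjusted p = 0.0162), 1.91-fold. The enzymes of acetylcholine and nitric oxide synthesis, Chat and Nos1, differed by −0.21 ± 0.15 and −0.28 ± 0.16, and the inhibitory peptide gene Vip by −0.14 ± 0.19, without passing. The peptide genes Gal (0.37 ± 0.18, adjusted p = 0.153) and Cartpt (0.29 ± 0.11, adjusted p = 0.0504) were higher without passing, and Calb1 did not differ beyond its error. Cartpt did pass in the fit with trend and robust moderation and in the fit without the dimmest 40% of genes.

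The promoter windows of the peptide genes Tac1 and Gal, in the same form, are shown because both read higher here, Gal without passing, while most neuronal genes read lower. Cartpt, which also read higher, is not printed. Tac1 lies at chr6:7554811-7555060 on the plus strand and Gal at chr19:3414545-3414794 on the minus strand.
Tac1: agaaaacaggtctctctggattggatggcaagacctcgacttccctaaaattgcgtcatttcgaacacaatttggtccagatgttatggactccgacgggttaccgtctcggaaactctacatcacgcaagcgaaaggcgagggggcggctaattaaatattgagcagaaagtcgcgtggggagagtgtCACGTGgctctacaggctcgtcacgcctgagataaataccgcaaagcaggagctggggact
Gal: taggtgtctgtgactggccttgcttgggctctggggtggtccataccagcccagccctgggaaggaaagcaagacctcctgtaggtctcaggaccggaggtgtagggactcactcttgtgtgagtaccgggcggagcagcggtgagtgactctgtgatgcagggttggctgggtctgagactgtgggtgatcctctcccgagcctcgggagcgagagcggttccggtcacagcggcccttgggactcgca
The capitals in Tac1 mark the E-box CACGTG, which starts 61 bases before the gene's start, and the printed window of Gal holds none of the 5 motifs.

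Of the 6 glial and neural crest genes, 1 fell. Erbb3, a neuregulin receptor of glial precursors that colon epithelium also expresses, read 8.88, 8.72, 9.15, 8.81 and 8.97 in FADD IEC-KO colons and 8.95, 9.26, 9.51, 9.34 and 9.13 in Fadd fl/fl colons. The groups overlapped, and the difference of −0.33 ± 0.12 passed narrowly (adjusted p = 0.0496). Foxd3, a transcription factor of the neural crest, read 6.41, 6.20, 6.02, 6.32 and 6.34 in FADD IEC-KO colons and 6.18, 6.59, 6.58, 6.58 and 6.55 in Fadd fl/fl colons (−0.24 ± 0.09, adjusted p = 0.0623). Only the lowest Fadd fl/fl array overlapped with the FADD IEC-KO arrays. The glial calcium-binding protein gene S100b differed by −0.02 ± 0.12, the glial filament gene Gfap by 0.03 ± 0.13, the glial transcription factor gene Sox10 by −0.22 ± 0.15 and the endothelin receptor gene Ednrb by −0.21 ± 0.15, and none of these passed.

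**Figure D2:**
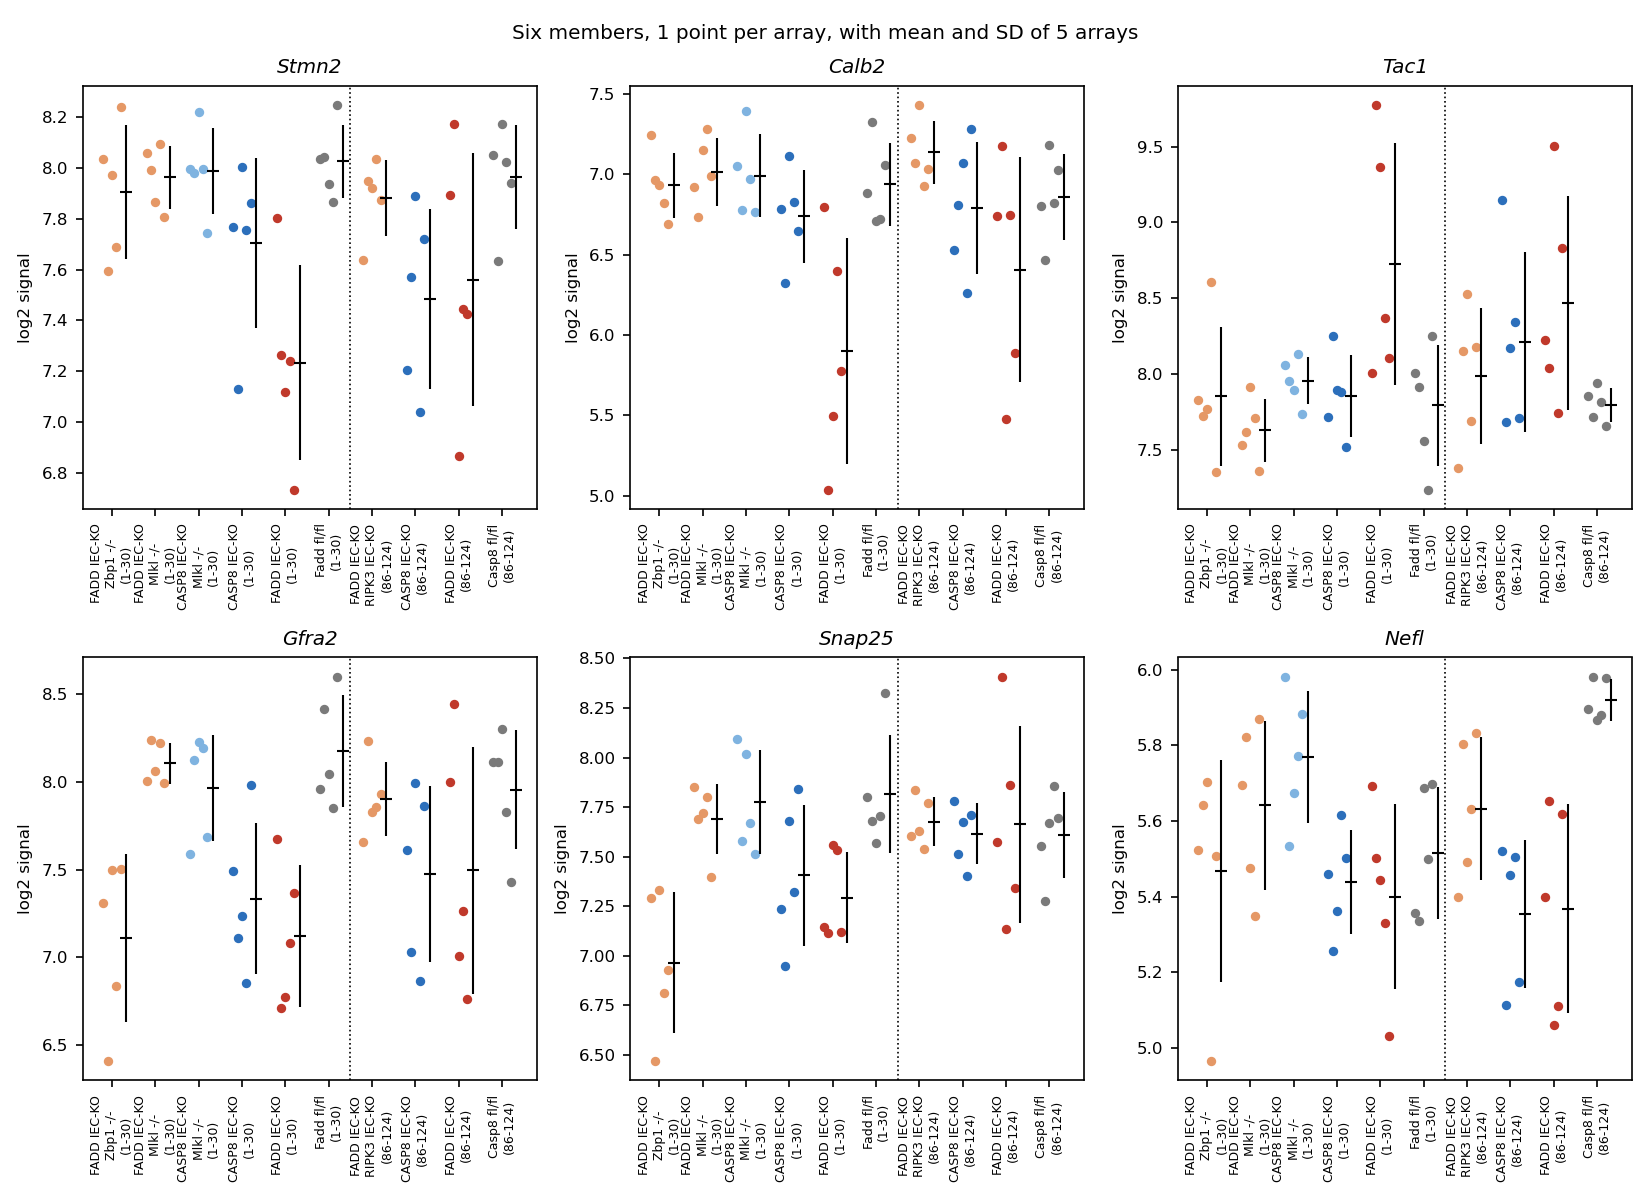
Log2 signal of Stmn2, Calb2, Tac1, Gfra2, Snap25 and Nefl on each of the 50 arrays, by group, with the mean and SD of 5 arrays beside the points. The dotted line parts the low from the high title-number series, and floxed controls stand last in each. Stmn2 and Gfra2 of FADD IEC-KO colons of the low series lie below all Fadd fl/fl arrays, Snap25 is low in FADD IEC-KO Zbp1 -/- colons, and Nefl is high in Casp8 fl/fl colons.

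Genes of other cell types moved in the same comparison. All 19 smooth muscle genes fell, with a median difference of −1.15, and the mean log2 signal of the muscle list ran between 8.19 and 9.69 in FADD IEC-KO colons and between 9.82 and 10.04 in Fadd fl/fl colons. The 3 genes of interstitial cells of Cajal, the pacemaker cells of the gut, fell too, with Kit at −0.78, Etv1 at −0.70 and Ano1 at −0.54. Of 24 other enteric neuron and glia genes on the array, 10 fell and 1 rose, among them the adhesion molecule gene Ncam1 (−0.77), the microtubule-associated gene Map1b (−0.61), Dpysl3 (−0.43) and the axonal anchor gene Ank2 (−0.40). Of 8 ligands of the enteric nervous system and their processing enzymes, Nrg1, the ligand of Erbb3 with its partner receptor, rose by 0.76 (adjusted p = 0.0207) and Bmp2 fell by 0.43 (adjusted p = 0.0402). All 7 neutrophil and acute inflammation genes and all 8 interferon-gamma response genes rose, as did 3 of 6 epithelial genes and 6 of 6 macrophage genes (median 0.57). Of 6 fibroblast genes 3 fell and all were lower (median −0.44), and of 5 endothelial genes 2 fell (median −0.13). Of the enteroendocrine genes, a further source of some of the vesicle and peptide genes, 1 of 9 rose (Pyy, 0.42), and of the tuft cell genes, a source of Chat in epithelium, 1 of 7 fell (Dclk1, −0.40). The median difference of the 35 members was smaller in size than that of the muscle list. The members' mean minus the muscle mean was −2.52 ± 0.62 in FADD IEC-KO colons and −3.45 ± 0.09 in Fadd fl/fl colons (SD, n = 5 each). The part that these changes play in the members' values was not tested. One fit took the muscle mean of each array as a covariate, but that mean itself differed between the groups, so the fit cannot decide this. In that fit 0 of the 35 members passed in limma, the median difference was −0.02, and 6 of all 19494 genes passed. At an unadjusted p under 0.05 there was 1 member, a cutoff at which all genes were not counted in this fit. Without the covariate there were 18 members and 6016 of all 19494 genes at that cutoff.

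The number of calls depended on a few arrays. Leaving out replicate 22 left 5 of the 13 calls. Leaving out replicates 22 and 23 together left 1, Stmn2, while the calls over all genes went from 3650 to 682. Without both replicates 29 of the 35 genes were lower, against 28 with them, and the median difference was −0.30, against −0.22. Gfra2, Calb2, Stmn2, Syt1 and Gap43 passed in 10 of 10 fits that left out 1 array, with adjusted p up to 0.0189. Tac1 lost its call without FADD IEC-KO replicate 22 or 23 or Fadd fl/fl replicate 29 (adjusted p up to 0.113), and Erbb3 passed in 2 of the 10 fits. When only the 10 compared arrays were fitted, 7 members fell and 0 rose.

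**Figure D3:**
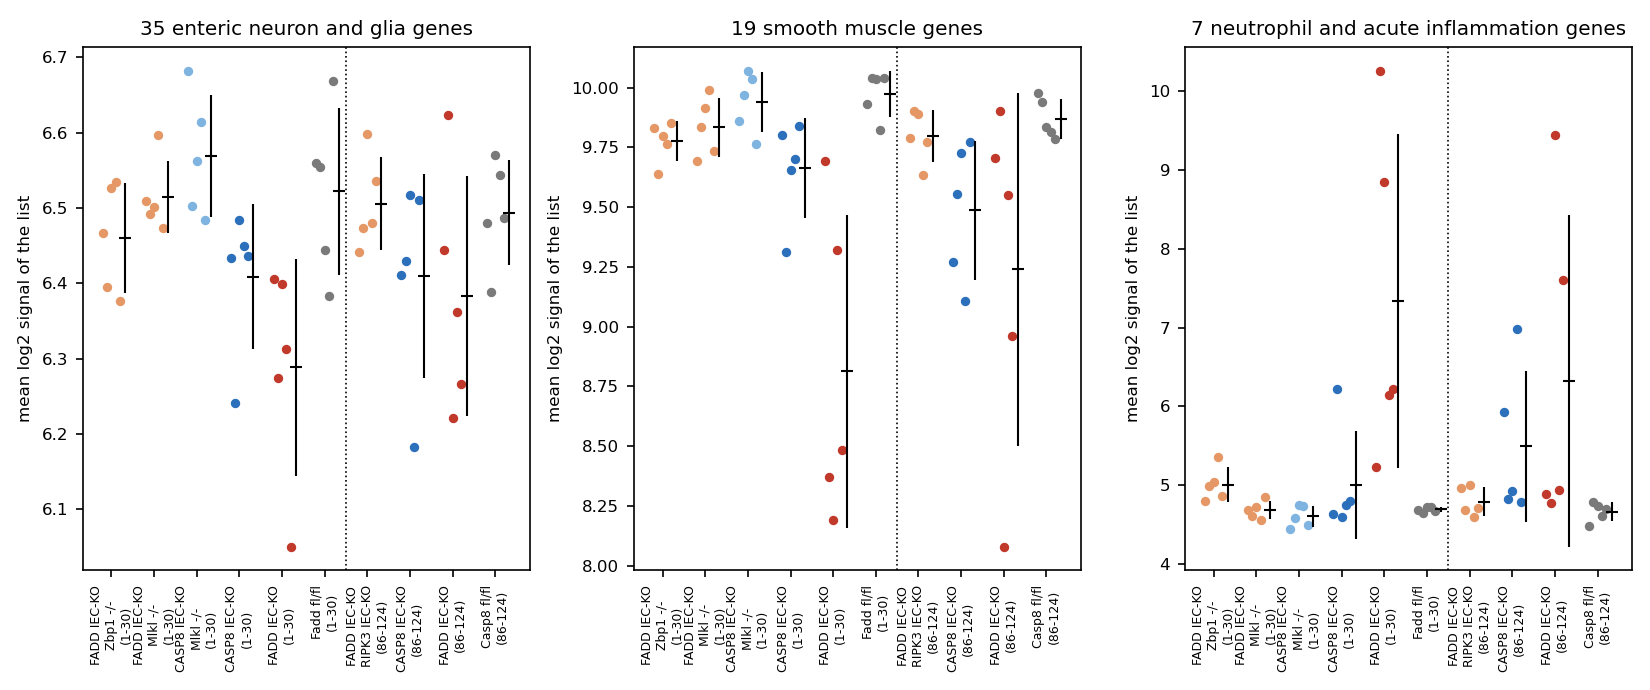
Mean log2 signal per array of the 35 enteric neuron and glia genes, of 19 smooth muscle genes and of 7 neutrophil and acute inflammation genes, by group, with the mean and SD of 5 arrays. The dotted line parts the title-number series. FADD IEC-KO colons of both series have the widest spread in the muscle and neutrophil lists.

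In the high series, 1 of the 35 genes fell in FADD IEC-KO colons against Casp8 fl/fl colons, where 4.25% of all genes fell. It was Nefl, the light chain of the neurofilament. Nefl read 5.40, 5.65, 5.06, 5.11 and 5.62 in FADD IEC-KO colons, against 5.90, 5.98, 5.87, 5.88 and 5.98 in Casp8 fl/fl colons. All FADD IEC-KO arrays lay below the controls (−0.55 ± 0.13, adjusted p = 0.00365). In all, 24 of 35 were lower, the median difference was −0.11, against −0.03 for all genes, and 7 of 19 smooth muscle genes fell. Of other lists, 3 of 6 fibroblast, 1 of 5 endothelial and 1 of 3 Cajal cell genes fell, and 3 of 7 neutrophil and acute inflammation, 5 of 6 macrophage and 7 of 8 interferon-gamma response genes rose. The part of these changes in the Nefl value was not tested. Nefl passed in the fit with the muscle covariate, but the muscle mean itself differed between the groups and the fit held no other list. That fit therefore cannot tell the part of these changes. Without replicates 117 and 124, a setting chosen after the values were seen, Nefl still passed (adjusted p = 0.0222), while the median difference of the 35 genes was −0.03. The genes that led in the low series read lower without passing, with differences of −0.46 ± 0.25 for Gfra2, −0.45 ± 0.24 for Calb2 and −0.40 ± 0.18 for Stmn2, while Syt1 differed by −0.09 ± 0.18 and Snap25 by 0.05 ± 0.18. Tac1 was higher by 0.67 ± 0.28 (adjusted p = 0.116). Tested directly, the effect in the high series minus that in the low series passed for 0 of 35 members in limma and for 0.123% of all genes. Of the members, 6 had an unadjusted p under 0.05, as did 2081 of all 19494 genes. Syt1 had the smallest p of the members (0.70 ± 0.25, adjusted p = 0.258). Without replicates 117 and 124 of the high series, 3 members passed in this test, Syt1 (0.99 ± 0.25, adjusted p = 0.0234), Uchl1 (0.92 ± 0.23, adjusted p = 0.0222) and Snap25 (0.86 ± 0.25, adjusted p = 0.0462), where 2.68% of all genes passed.

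In CASP8 IEC-KO colons of the high series, Nefl was again the 1 member that fell against Casp8 fl/fl colons, in a comparison where 0.662% of all genes fell. It read 5.52, 5.11, 5.46, 5.50 and 5.17 in CASP8 IEC-KO colons, against the Casp8 fl/fl values given above, with no overlap (−0.57 ± 0.13, adjusted p = 0.0159). Both comparisons share the Casp8 fl/fl arrays, and Nefl in these read high against other groups too. Casp8 fl/fl arrays lay above all 5 Fadd fl/fl arrays, at 5.36, 5.34, 5.69, 5.50 and 5.70, with a difference of 0.41 ± 0.13 that did not pass (adjusted p = 0.250). In this comparison, which crosses the series and was added after the values were seen, 0.0103% of all genes rose. In FADD IEC-KO RIPK3 IEC-KO colons Nefl also lay below all Casp8 fl/fl arrays without passing (−0.29 ± 0.13, adjusted p = 0.408). FADD IEC-KO and Fadd fl/fl colons of the low series overlapped for Nefl (−0.12 ± 0.13). Without CASP8 IEC-KO replicate 87 or 104, Nefl no longer passed in CASP8 IEC-KO colons (adjusted p up to 0.0711). The call was also lost with only the compared arrays fitted and with the muscle covariate (adjusted p up to 0.178). In the same comparison 3 of 6 fibroblast genes fell (median −0.61), as did 2 of 5 endothelial genes (median −0.40), and all 19 smooth muscle genes were lower with 0 passing in limma (median −0.38). Their part in the Nefl value was not tested.

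Against Fadd fl/fl colons of the low series, 1 member fell in CASP8 IEC-KO colons, Stmn3, and 0.0667% of all genes fell. Stmn3 read 7.02, 7.20, 7.11, 7.32 and 7.28 in CASP8 IEC-KO colons and 7.50, 7.64, 7.64, 7.57 and 7.69 in Fadd fl/fl colons. No arrays overlapped (−0.42 ± 0.09, adjusted p = 0.0238). The call was held in 3 of 10 fits that left out 1 array, with adjusted p up to 0.0857. Gfra2 had the largest difference of the 35 members in that comparison, −0.84 ± 0.25, and did not pass (adjusted p = 0.152). Stmn3 in CASP8 IEC-KO colons of the high series differed from Casp8 fl/fl colons by −0.08 ± 0.09.

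Between the single knockouts, with the differences within each series averaged, 1 member was higher in CASP8 IEC-KO colons than in FADD IEC-KO colons, Calb2 (0.61 ± 0.17, adjusted p = 0.0258, 10 arrays each), where 2.13% of all genes were higher. Calb2 read 6.78, 6.32, 7.11, 6.82 and 6.65 in CASP8 IEC-KO colons of the low series and 6.53, 6.81, 7.07, 6.26 and 7.28 in those of the high series. In FADD IEC-KO colons it read 6.80, 5.04, 5.50, 6.40 and 5.77 in the low series and 6.74, 7.18, 5.48, 6.75 and 5.89 in the high series. The genotypes overlapped in both series, and the 5 lowest of the 20 values were FADD IEC-KO arrays. Tac1 was lower in CASP8 IEC-KO colons without passing (−0.56 ± 0.20, adjusted p = 0.0854). Calb2 lost its call when FADD IEC-KO replicates 22 and 23 of the low series, or 117 and 124 of the high series (adjusted p = 0.269), were left out together, and passed in 13 of 20 fits that left out 1 array. In the same comparison 14 of 19 smooth muscle genes were higher and 5 of 7 neutrophil and acute inflammation genes lower in CASP8 IEC-KO colons.

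Several neuronal genes were higher when Zbp1 or Mlkl was lost in addition to epithelial FADD, each against FADD IEC-KO colons of the low series. With Zbp1 loss 7 of 35 rose, where 5.61% of all genes rose, and 2 fell, a share close to the 5.14% of all genes that fell. With Mlkl loss 6 rose, where 2.91% of all genes rose, and 2 fell, where 2.93% fell. Both comparisons, and that of FADD IEC-KO with Fadd fl/fl colons, share the 5 FADD IEC-KO arrays, so opposite signs between them are not separate evidence. Leaving out replicates 22 and 23 left 0 members passing in limma in each co-deletion comparison, where 121 of all genes passed with Zbp1 loss and 8 with Mlkl loss. The median difference of the 35 genes was then 0.21 with Zbp1 loss and 0.29 with Mlkl loss, against 0.19 and 0.21 with all arrays. An unadjusted p under 0.05 was then found for 14 members with Zbp1 loss and 15 with Mlkl loss. All genes were not counted at that cutoff in this setting. Calb2 and Stmn2 passed in 10 of 10 fits that left out 1 array in both comparisons, and every other member named below as rising or falling lost its call without FADD IEC-KO replicate 22. Calb2 and Stmn2 too lost their calls in both comparisons with only the compared arrays fitted and with the muscle covariate. Over all alternatives the adjusted p reached 0.905 for Calb2 and 0.923 for Stmn2 with Zbp1 loss, and 0.973 and 0.975 with Mlkl loss.

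Calb2, Stmn2 and Syt1 rose in both co-deletions. Calb2 was higher by 1.03 ± 0.24 with Zbp1 loss and by 1.11 ± 0.24 with Mlkl loss, 2.04-fold and 2.16-fold. Calb2 and Mlkl lie near each other on chromosome 8, at 110142526-110168212 and 111311255-111338479. Whether this nearness plays a part in Calb2 of the Mlkl -/- colons was not tested. Stmn2 was higher by 0.67 ± 0.18 with Zbp1 loss and by 0.73 ± 0.18 with Mlkl loss. With Mlkl loss it read 8.06, 7.99, 7.87, 8.10 and 7.81, against 7.80, 7.26, 7.12, 7.24 and 6.73 in FADD IEC-KO colons, with no overlap (adjusted p = 0.00949). Syt1 was higher by 0.69 ± 0.18 with Zbp1 loss and by 0.68 ± 0.18 with Mlkl loss. Elavl4 rose with Zbp1 loss and read 5.14, 4.95, 5.55, 5.07 and 5.15 in FADD IEC-KO Zbp1 -/- colons, all above the FADD IEC-KO arrays given earlier (0.57 ± 0.18, adjusted p = 0.0324). Syp rose there too, at 7.01, 7.05, 7.00, 7.09 and 7.14 in FADD IEC-KO Zbp1 -/- colons against 6.88, 6.44, 6.71, 6.71 and 6.55 in FADD IEC-KO colons, with no overlap (0.40 ± 0.11, adjusted p = 0.0119). Uchl1 (0.53 ± 0.17) and the glial gene Sox10 (0.48 ± 0.15) completed the 7 that rose with Zbp1 loss. With Mlkl loss, Syn1 (0.56 ± 0.18, adjusted p = 0.0467) and the peripheral neurofilament gene Prph (0.52 ± 0.16, adjusted p = 0.0361) rose as well, and so did Gfra2. Beside these, 18 of 19 smooth muscle genes rose with Zbp1 loss and 19 of 19 with Mlkl loss, and all 7 neutrophil and acute inflammation genes fell in both.

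Tac1 and Gal were the 2 members that fell in both co-deletions. Tac1 read 7.54, 7.62, 7.92, 7.71 and 7.36 in FADD IEC-KO Mlkl -/- colons and 7.83, 7.72, 7.77, 8.61 and 7.36 in FADD IEC-KO Zbp1 -/- colons, against 8.01, 9.77, 9.37, 8.37 and 8.11 in FADD IEC-KO colons. All Mlkl -/- co-deletion arrays lay below all FADD IEC-KO arrays (−1.10 ± 0.28, adjusted p = 0.0146), whereas with Zbp1 loss 1 array, at 8.61, overlapped (−0.87 ± 0.28, adjusted p = 0.0383). Gal encodes galanin, an inhibitory peptide of enteric neurons. It read 4.98, 4.61, 4.80, 4.78 and 5.06 in FADD IEC-KO Mlkl -/- colons and 4.94, 5.16, 4.75, 4.85 and 4.46 in FADD IEC-KO Zbp1 -/- colons, against 5.19, 5.43, 6.19, 5.53 and 4.78 in FADD IEC-KO colons. The ranges overlapped, and Gal differed by −0.58 ± 0.18 with Mlkl loss (adjusted p = 0.0465) and by −0.59 ± 0.18 with Zbp1 loss (adjusted p = 0.0287). Both genes lost their calls in both comparisons without FADD IEC-KO replicate 22 or 23. Over all fits that left out 1 array, the adjusted p reached 0.201 for Tac1 and 0.250 for Gal.

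Gfra2 and Snap25 read differently in the Zbp1 and Mlkl co-deletions. Gfra2 read 7.31, 6.41, 7.50, 6.84 and 7.51 in FADD IEC-KO Zbp1 -/- colons and 8.00, 8.24, 8.06, 8.22 and 7.99 in FADD IEC-KO Mlkl -/- colons, against 7.68, 6.71, 6.77, 7.08 and 7.37 in FADD IEC-KO colons. With Mlkl loss every array lay above every FADD IEC-KO array (0.98 ± 0.25, adjusted p = 0.0130), and with Zbp1 loss the difference was −0.01 ± 0.25 (adjusted p = 0.988). Snap25 read 7.29, 6.47, 7.33, 6.81 and 6.93 in FADD IEC-KO Zbp1 -/- colons and 7.85, 7.69, 7.72, 7.80 and 7.40 in FADD IEC-KO Mlkl -/- colons. Against FADD IEC-KO colons it differed by −0.33 ± 0.18 with Zbp1 loss and by 0.40 ± 0.18 with Mlkl loss, and neither passed. The co-deletions were compared directly after the values were seen. Snap25 was lower in FADD IEC-KO Zbp1 -/- than in FADD IEC-KO Mlkl -/- colons (−0.73 ± 0.18, adjusted p = 0.0405), where 0.2% of all genes were lower, and Gfra2 differed by −0.99 ± 0.25 without passing (adjusted p = 0.0526). Neither gene had overlapping arrays in that comparison. Snap25 held its call in 3 of 10 fits that left out 1 array.

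Against Fadd fl/fl colons, the same 2 genes were the members that fell in FADD IEC-KO Zbp1 -/- colons, where 0.575% of all genes fell. Snap25 differed by −0.85 ± 0.18 (adjusted p = 0.00879), or 0.555 of the control signal, and Gfra2 by −1.06 ± 0.25 (adjusted p = 0.0198), with no overlap for either gene. Without FADD IEC-KO Zbp1 -/- replicate 2, neither passed (adjusted p = 0.0505 for Snap25 and 0.103 for Gfra2), and Gfra2 also lost its call without replicate 4 of that group or Fadd fl/fl replicate 27. The mean log2 signal of the 35 genes was 6.46 ± 0.07 in FADD IEC-KO Zbp1 -/- colons and 6.52 ± 0.11 in Fadd fl/fl colons, and the smooth muscle mean was 9.78 ± 0.08 in FADD IEC-KO Zbp1 -/- colons and 9.97 ± 0.10 in Fadd fl/fl colons (SD, n = 5 each).

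The remaining co-deletions gave few member calls. In CASP8 IEC-KO Mlkl -/- colons 1 member rose against CASP8 IEC-KO colons, Stmn3, where 0.128% of all genes rose. It read 7.66, 7.48, 7.67, 7.59 and 7.52 in CASP8 IEC-KO Mlkl -/- colons, against 7.02, 7.20, 7.11, 7.32 and 7.28 in CASP8 IEC-KO colons. The groups did not overlap (0.40 ± 0.09, adjusted p = 0.0309). In all, 28 of 35 members were higher, with a median difference of 0.17, given here without the count for all genes. At an unadjusted p under 0.05 there were 7 of 35 members and 2557 of all 19494 genes. This comparison shares the CASP8 IEC-KO arrays with that against Fadd fl/fl colons, and the call was held in 5 of 10 fits that left out 1 array. The effect of Mlkl loss in CASP8 IEC-KO colons minus that in FADD IEC-KO colons passed for 0 members in limma and for 0.0154% of all genes. An unadjusted p under 0.05 was found for 4 of 35 members and for 2142 of all 19494 genes. Tac1 had the smallest p of the members (1.20 ± 0.40, adjusted p = 0.253).

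In FADD IEC-KO RIPK3 IEC-KO colons 0 members passed in limma against FADD IEC-KO colons of the high series, where 0.754% of all genes passed. Of the 35 members, 5 had an unadjusted p under 0.05, a share close to that of all genes, 2837 of 19494. In all, 28 of 35 members were higher, given here without the count for all genes. Calb2 (0.73 ± 0.24, adjusted p = 0.122) and Scg2 (0.50 ± 0.16, adjusted p = 0.113) differed most. With RIPK3 lost as well, Calb2 read 7.22, 7.07, 7.43, 6.92 and 7.03, against 6.74, 7.18, 5.48, 6.75 and 5.89 in FADD IEC-KO colons. The 2 lowest FADD IEC-KO arrays, replicates 117 and 124, lay well below the rest, and they are the arrays of the high neutrophil and low muscle means given above. In this comparison all 19 smooth muscle genes were higher with 0 passing in limma (median 0.53), all 7 neutrophil and acute inflammation genes were lower with 0 passing (median −1.38), and 4 of 8 interferon-gamma response genes and 1 of 6 macrophage genes fell. Their part in the members' values was not tested. Without the 2 replicates 0 members passed, and the difference in the mean of the 35 genes was 0.03, against 0.12 with them.

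Against floxed controls, 0 members passed in limma in FADD IEC-KO Mlkl -/- colons, where 0.159% of all genes passed. The same held for FADD IEC-KO RIPK3 IEC-KO colons, where 0.0769% passed, and for CASP8 IEC-KO Mlkl -/- colons, where 0.0462% passed. At an unadjusted p under 0.05 the counts were 2, 2 and 1 of 35 in that order, and 1829, 2095 and 1596 of all 19494 genes. The mean log2 signal of the 35 genes was 6.51 ± 0.05 in FADD IEC-KO Mlkl -/- colons, 6.57 ± 0.08 in CASP8 IEC-KO Mlkl -/- colons and 6.52 ± 0.11 in Fadd fl/fl colons. In the high series it was 6.51 ± 0.06 in FADD IEC-KO RIPK3 IEC-KO colons, 6.41 ± 0.14 in CASP8 IEC-KO colons, 6.38 ± 0.16 in FADD IEC-KO colons and 6.49 ± 0.07 in Casp8 fl/fl colons. A missing call does not show that the levels were alike.

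With the group means taken off, some members varied together across the 50 arrays and others did not. Pearson's r of a member with the mean of the other members was over 0.5 for 12 of 35, with Uchl1 (0.84), Nos1 (0.79), Scg2 (0.76), Syt1 (0.74), Stmn2 (0.72) and Prph (0.72) leading. It was under 0.2 for 10, among them Tac1 (−0.09), Gal (0.01), Nefl (0.13), Chat (−0.14), Phox2a (−0.16) and Gfra1 (−0.13). By role, the median was 0.63 for the 5 vesicle genes, 0.48 for the 10 RNA-binding, cytoskeletal and axonal genes, 0.34 for the 5 transcription factors and trophic factor receptors, 0.22 for the 9 transmitter and peptide genes and 0.10 for the 6 glial genes. Of the 10 under 0.2, 7 are neuronal, the 6 named and Nefm, and 3 are glial or crest genes, S100b (−0.11), Gfap (−0.07) and Foxd3 (−0.03). The genes outside the list whose values ran closest to the mean of the 35 were Slc7a14 (r = 0.80), Ncam1 (0.78), Kit (0.77), Ndn (0.76) and Rbms3 (0.76), of 19459 other genes. The list mean correlated at 0.80 with the mean of 24 other enteric neuron and glia genes, at 0.67 with that of the Cajal cell genes, at 0.55 with that of smooth muscle and at −0.47 with that of epithelium. These correlations are descriptions over arrays that share tissue composition and normalization.

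**Figure D4:**
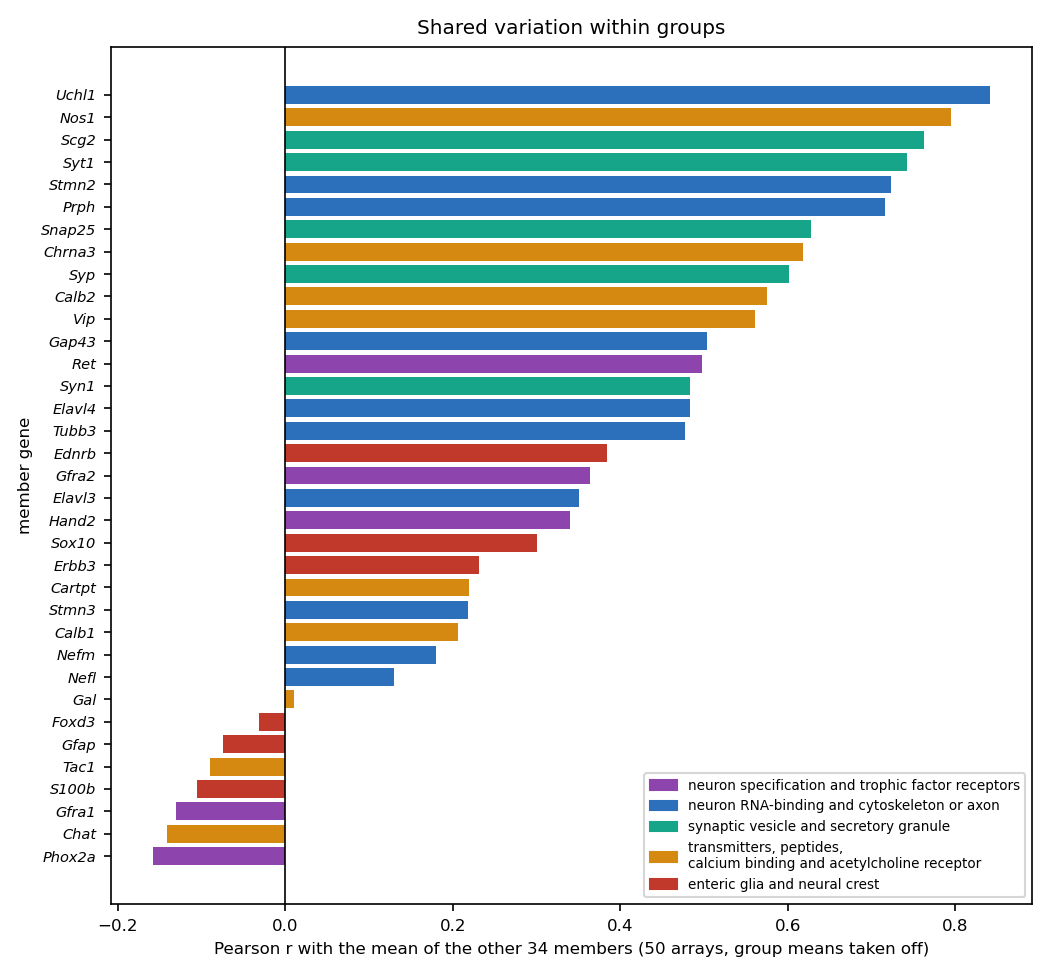
Pearson r of each of the 35 genes with the mean of the other members over 50 arrays, after the mean of each group was taken off, with bars coloured by role. Uchl1, Nos1 and Scg2 are at the top, and Chat, Gfra1 and Phox2a at the bottom lie below 0.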

How the data were processed

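Colon RNA of 50 samples was labelled from 100 ng of total RNA with the GeneChip WT PLUS kit, per the labels' protocols, and the submitters' processing notes name Affymetrix Expression Console and Transcriptome Analysis Console. How the arrays were normalized is not given in these sources. Log2 signals of 22142 probe sets were deposited, between 1.18 and 13.3, with no counts, so the number of arrays limits the precision. Of these, 19527 had 1 gene symbol, 2615 had none, and for genes with several probe sets the one with the highest mean was kept, leaving 19494 genes.

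Groups were genotypes within a title-number series, and 0 pairs of arrays were identical. The 10 group means were estimated in 1 linear model of the 50 arrays (limma 3.58.1 in R 4.3.3, 40 residual degrees of freedom), with p-values adjusted over all 19494 genes by Benjamini-Hochberg and a threshold of 0.05. The fit was tested on simulated data. Arrays are named in full where a member passed with groups that did not overlap, and for the 2 largest differences of each role in the first comparison. Values of Calb2 and Gal elsewhere, Snap25 and Gfra2 between the co-deletions, and the comparisons of the co-deletions and of the floxed controls with each other were added after the values were seen. Members and gene lists were chosen with earlier results of these data known. Leaving out replicates 117 and 124 together was added too. Alternatives left out arrays, fitted the compared arrays alone, took the smooth muscle mean as a covariate, weighted groups by their spread, normalized by quantiles, moderated with trend and robust settings, or dropped the dimmest 40% of genes. Probe-set exon positions were not used here.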

Additional observations from a re-analysis of the deposited data

Results flagged for a closer look

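Of 190 groups of 5 arrays examined for members with a call and for list means, 11 held an array set apart from the other 4 by more than Dixon's test allows at 95%, and chance alone flags about 1 in 20, or 9.5 here. Causes were not tested. In CASP8 IEC-KO colons of the low series, replicate 17 had a mean over the 35 genes of 6.241, against 6.434 to 6.484 in the others, and a Stmn2 signal of 7.131, against 7.756 to 8.006. Replicate 19 of that group had a Syp signal of 7.239, against 6.779 to 6.854.

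In CASP8 IEC-KO colons of the high series, replicate 104 was low for the glial gene Sox10, at 4.38 against 5.32 to 5.671, and for Syt1, at 6.774 against 7.355 to 7.585. In FADD IEC-KO Zbp1 -/- colons, Nefl was low in replicate 4, at 4.964 against 5.507 to 5.702, Syt1 in replicate 2, at 7.425 against 7.61 to 7.676, and Uchl1 in replicate 5, at 7.347 against 7.568 to 7.639. In FADD IEC-KO Mlkl -/- colons, Gap43 was low in replicate 11, at 5.574 against 5.85 to 5.884, and Uchl1 high in replicate 14, at 7.733 against 7.374 to 7.471. In Casp8 fl/fl colons, Erbb3 was low in replicate 119, at 8.853 against 9.244 to 9.383.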

How the results depend on the processing

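No paired analysis was possible because no replicate number is shared between groups. The difference in the mean of the 35 genes moved by less than 1 SD in 244 of 244 repeats, an SD that includes the arrays left out. Most of these repeats left out 1 array, which by arithmetic cannot move the difference by 1 SD. They could not have exceeded this limit, so the count does not show that the difference was stable. For FADD IEC-KO minus Casp8 fl/fl colons that difference was −0.11, against −0.17 without FADD IEC-KO replicate 95, −0.07 without replicate 117 and −0.02 without replicates 117 and 124, a setting chosen after the values were seen. For FADD IEC-KO minus Fadd fl/fl colons, 13 members passed, against 7 with only the compared arrays fitted, 0 with the muscle covariate and 1 without replicates 22 and 23, while all genes gave 3650, against 6 with the covariate and 682 without those replicates. With the covariate, 4 members changed sign, Uchl1 to 0.034, Tac1 to −0.0018, Calb2 to 0.0847 and Chrna3 to 0.0848. For FADD IEC-KO minus Casp8 fl/fl colons, 2 passed, against 1, after quantile normalization and with trend and robust moderation, where Erbb3 was added. For CASP8 IEC-KO minus Casp8 fl/fl colons, 0 passed with the compared arrays only, without the dimmest 40% (which removes Nefl itself) and with the covariate. With the compared arrays only, 0 passed for CASP8 IEC-KO minus Fadd fl/fl and for CASP8 IEC-KO Mlkl -/- minus CASP8 IEC-KO colons. For CASP8 IEC-KO minus FADD IEC-KO colons, 0 passed with the compared arrays only, with the covariate, without replicates 22 and 23 and without 117 and 124. Without 117 and 124, and with replicates 22 and 23 of the low series kept, 3 passed for the FADD IEC-KO effect in the high series minus that in the low series, against 0. Against FADD IEC-KO colons, 9 members passed with Zbp1 loss and 8 with Mlkl loss. With the compared arrays only, 1 passed with Zbp1 loss, which is among the 9, and 2 with Mlkl loss, of which 1 is among the 8, and 0 passed in either with the covariate or without replicates 22 and 23. Between these co-deletions, 2 passed, against 1, after quantile normalization, without the dimmest 40%, with group weights and with the covariate. Causes of these moves were not tested.

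With 1 array left out, the counts ran between 5 and 14 for FADD IEC-KO minus Fadd fl/fl, 1 and 4 for FADD IEC-KO minus Casp8 fl/fl, 0 and 2 for CASP8 IEC-KO minus Casp8 fl/fl, 0 and 1 for CASP8 IEC-KO minus Fadd fl/fl, and 0 and 4 for CASP8 IEC-KO minus FADD IEC-KO colons. They ran between 2 and 11 with Zbp1 loss, 3 and 11 with Mlkl loss and 0 and 2 with RIPK3 loss, each against FADD IEC-KO colons. They ran between 0 and 1 for CASP8 IEC-KO Mlkl -/- minus CASP8 IEC-KO, 0 and 2 for FADD IEC-KO Zbp1 -/- minus Fadd fl/fl, and 0 and 2 between the Zbp1 and Mlkl co-deletions, and stayed at 0 for the remaining comparisons. Over all alternatives, 415 of 642 values of single members stayed on the same side of the threshold, 223 lost their call and 4 changed sign.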

Other observations

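A few enteric genes outside the 35 passed in comparisons other than that of FADD IEC-KO with Fadd fl/fl colons. Among 24 further enteric neuron and glia genes, 4 rose in FADD IEC-KO Mlkl -/- colons against FADD IEC-KO colons, the glial cadherin gene Cdh19 by 1.02, Ncam1 by 0.77, Map1b by 0.52 and Gpr37l1 by 0.32 on the log2 scale, where 2.91% of all genes rose. In FADD IEC-KO Zbp1 -/- colons 1 of the 24 rose against FADD IEC-KO colons, Entpd2, an ectonucleotidase of glia, by 0.38, a share below the 5.61% of all genes that rose. In FADD IEC-KO colons of the high series 2 fell against Casp8 fl/fl colons, the peptide gene Nmu by 0.55 and the choline transporter gene Slc5a7 by 0.56, where 4.25% of all genes fell. Gpr37l1 also rose in CASP8 IEC-KO Mlkl -/- colons against CASP8 IEC-KO colons, by 0.41 (limma, adjusted p = 0.0482), where 0.128% of all genes rose.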
